A study of Mus musculus and Rattus norvegicus with 21 samples.

Results

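The regions described here were places in the genome of rat PCCl3 cells where GLIS3, NKX2.1 and FOXE1 peaks lay together. PCCl3 is a thyroid follicular cell line. The regions were selected by peak positions alone. The GLIS3, NKX2.1 and FOXE1 peaks, each 300 bp around its midpoint, were pooled, peaks within 50 bp of each other were merged into collapsed regions, and a collapsed region was kept when it overlapped a peak of every one of the 3 factors. In total, 2234 of 86651 collapsed regions (2.58%) were kept. This count follows from the rule, and it is a description and not a finding.

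The GLIS3, NKX2.1 and FOXE1 peaks came from chromatin immunoprecipitation followed by sequencing (ChIP-seq), with 1 library per factor and no replicate. GLIS3 was precipitated with an antibody against the HA tag, and NKX2.1 and FOXE1 with antibodies against the proteins themselves. According to the study's methods, the HA-tagged GLIS3 was made from a doxycycline-inducible lentiviral construct in puromycin-selected PCCl3 cells. These cells were given doxycycline before collection. The level of the tagged GLIS3 need not be that of the cells' own GLIS3. The methods describe no other PCCl3 chromatin for ChIP-seq, whereas the labels name the cells of all 3 libraries only as PCCL3, with no treatment. The GLIS3 and FOXE1 libraries shared 1 input library (sheared chromatin without precipitation), whereas NKX2.1 had an input of its own. The mouse samples of the series were not used here.

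GLIS3 is a Krüppel-like zinc finger protein, NKX2.1 a homeodomain protein and FOXE1 a forkhead protein. All of them bind DNA, act in thyroid follicular cells and are needed for thyroid development or for the synthesis of thyroid hormone. The study mapped them in the same cell line to learn how far these transcription factors (TFs) share binding sites. A ChIP-seq peak marks where precipitated fragments pile up, and the DNA base or protein partner that a TF contacts can lie some way from its midpoint. The genes and the DNA sequences at these rat positions were not analysed here.

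The lists held 46004 GLIS3, 47390 NKX2.1 and 9448 FOXE1 peaks. A region is said to be without a TF, or to hold others only or alone, when no peak of that TF was called there. Weaker binding of that TF is not excluded. The study itself scored a collapsed region by the number of fragments overlapping it, so its overlaps can differ from those given here. The files hold no peak height, and the number of reads behind each list is unknown from them, so a longer list cannot be told apart from a deeper library. With 1 library per factor no test between samples was possible. Ranges in parentheses are 95% intervals, by Wilson's method for shares and from order statistics for medians. They cover counting only, and they treat regions as independent, which neighbouring regions are not.

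The regions with all 3 TFs took a much larger part of the FOXE1 list than of the other 2 lists. They held 2240 FOXE1 peaks, or 23.7% of that list (22.9 to 24.6%), against 2250 GLIS3 peaks (4.89%) and 2297 NKX2.1 peaks (4.85%). FOXE1 had the shortest list, which bounds the number of regions that could hold all 3.

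How often the third TF had a peak differed with the pair already there. GLIS3 had a peak in 57.9% of the 3856 regions with NKX2.1 and FOXE1 (56.4 to 59.5%), compared with 17.9% of the 43273 regions with NKX2.1 and without FOXE1 and 36.4% of the 5583 regions with FOXE1 and without NKX2.1. NKX2.1 had a peak in 52.4% of the 4264 regions with GLIS3 and FOXE1 (50.9 to 53.9%), compared with 18.6% of the 41700 regions with GLIS3 and without FOXE1 and 31.3% of the 5175 regions with FOXE1 and without GLIS3. FOXE1 had a peak in 22.4% of the 9995 regions with GLIS3 and NKX2.1 (21.5 to 23.2%). Its share was 5.64% in regions with GLIS3 and without NKX2.1, and 4.37% in regions with NKX2.1 and without GLIS3. Each TF was thus found more often beside both others than beside 1 of them. These shares use the same overlaps that chose the regions and are given as a description. Collapsed regions with peaks of 2 TFs were also wider than those with 1 TF, with medians of 356 and 300 bp. The part of this width in the shares was not tested.

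Most regions with all 3 TFs held the smallest number of peaks the rule allows. Exactly 3 peaks, 1 of each TF, were found in 2158 regions (96.6%, 95.8 to 97.3%), 4 peaks in 67 and 5 peaks in 9. The 76 regions with more than 3 peaks mostly owed the extra peak to NKX2.1. A further NKX2.1 peak was present in 63 of them, a further GLIS3 peak in 16 and a further FOXE1 peak in 6. The commonest of these make-ups was 2 NKX2.1 peaks with 1 peak of each other TF, in 55 regions. Over all collapsed regions, too, peaks outnumbered regions most for NKX2.1, so its lead was not particular to regions with all 3 TFs. The 47390 NKX2.1 peaks lay in 3856 regions with FOXE1 and 43273 without it. The 46004 GLIS3 peaks lay in 4264 regions with FOXE1 and 41700 without it. The 9448 FOXE1 peaks lay in 3856 regions with NKX2.1 and 5583 without it. How close peaks of a single list could lie differed between the lists, since the nearest NKX2.1 midpoints were 247 bp apart, the nearest GLIS3 midpoints 334 bp and the nearest FOXE1 midpoints 340 bp. Only the NKX2.1 list had neighbours closer than 300 bp, 24 in all. The part of this closeness in the extra NKX2.1 peaks was not tested.

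Among the 5 regions named for the most peaks, with ties broken by the smaller span, each had 5. They are given by their rn6 positions, counted from 1. The region on chromosome 7 from 75048171 to 75049069 had GLIS3 and NKX2.1 midpoints at 150 and 253 bp from its start, a FOXE1 midpoint at 542 bp, and a further pair of NKX2.1 and GLIS3 midpoints at 742 and 749 bp. FOXE1 thus stood between 2 neighbouring GLIS3 and NKX2.1 pairs. The region on chromosome 7 from 122156720 to 122157648 also had FOXE1, at 525 bp, between 2 such pairs. GLIS3 and NKX2.1 lay at 150 and 182 bp, and the second pair, with GLIS3 first, at 742 and 779 bp. On chromosome 10, from 10664581 to 10665579, FOXE1 at 595 bp again lay between GLIS3 and NKX2.1 at 150 and 355 bp and GLIS3 and NKX2.1 at 764 and 849 bp. The region on chromosome 5 from 124836206 to 124837360 differed in that FOXE1 was outermost, at 1005 bp, after GLIS3 at 150 bp, NKX2.1 at 448 and 784 bp and GLIS3 at 906 bp. The remaining one, on chromosome 2 from 124483073 to 124484019, had a single GLIS3 midpoint at 452 bp, with FOXE1 and NKX2.1 on either side of it at 150 and 263 bp and at 797 and 768 bp.

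The midpoints of the 3 TFs lay within a short stretch in most regions. The rule favours this, because only peaks of 300 bp within 50 bp of each other were merged, and the values move with those settings. For a region with several peaks of a TF, the 3 midpoints of different TFs with the smallest distance from first to last, called the span, were used. The span had a median of 111.5 bp (107 to 117 bp, n = 2234), with quartiles of 62 and 202 bp and a range of 1 to 632 bp. It was at most 50 bp in 408 regions (18.3%, 16.7 to 19.9%) and at most 100 bp in 1009 regions (45.2%, 43.1 to 47.2%). In 1988 regions (89.0%, 87.6 to 90.2%) the 3 peaks of 300 bp shared at least 1 base, and the shared stretch had a median of 201 bp (196 to 206 bp).

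In the other 246 regions no base was common to all 3 peaks. In 142 of them 2 of the 3 pairs of peaks overlapped, in 102 only 1 pair did, and in 2 none did, so that the peaks were joined across gaps. The regions with all 3 TFs were a median of 413 bp wide (408 to 419 bp) and covered 1.013 Mb, whereas regions with peaks of 2 TFs had a median of 356 bp. That difference follows from merging more peaks.

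The 5 regions with the smallest span, among those with exactly 3 peaks, had all midpoints within 1 to 6 bp. On chromosome 1, from 247372568 to 247372868, the GLIS3 and FOXE1 midpoints fell on the same base and NKX2.1 lay 1 bp away. On chromosome 19, from 53668740 to 53669043, GLIS3 and NKX2.1 shared a base and FOXE1 lay 4 bp away. On chromosome 15, from 39956522 to 39956826, NKX2.1 and FOXE1 shared a base, 5 bp from GLIS3. So each possible pair coincided in 1 of these regions. The other 2, on chromosome 3 (91777645 to 91777949) and chromosome 9 (47111658 to 47111963), had spans of 5 and 6 bp and no shared position.

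At the far end, the 5 largest spans ran from 576 to 632 bp. The largest was on chromosome 12, from 10338353 to 10339733, where 5 peaks formed the widest region, of 1381 bp. Its tightest set ran from NKX2.1 at 599 bp through GLIS3 at 909 bp to FOXE1 at 1231 bp. The next, on chromosome 8 from 26412314 to 26413242, had NKX2.1 at 150 bp, GLIS3 at 456 bp and FOXE1 at 779 bp, with no overlap between any of the peaks. The others were on chromosome 10 (14239020 to 14239910, 591 bp), chromosome 1 (192024895 to 192025774, 580 bp) and chromosome 8 (78201661 to 78202536, 576 bp). GLIS3 was in the middle in 3 of these 5, NKX2.1 in 1 and FOXE1 in 1.

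Pairs of midpoints were compared with the same pairs in regions that had no called peak of the third TF. NKX2.1 and FOXE1 lay farther apart where GLIS3 was also present. Their median distance was 69 bp in regions with all 3 TFs (66 to 73 bp, n = 2234) and 55 bp in regions with only these 2 (51 to 58 bp, n = 1622). Distances reached 632 bp in regions with all 3 TFs, where the third peak can bridge the other 2, and 350 bp in regions with only 2, so the comparison was repeated for overlapping peaks only. It gave 64 bp (61 to 68 bp) with GLIS3 and 53 bp (49 to 56 bp) without it. The repeat put the same upper limit on both distances but did not remove the selection. Peaks that lie farther apart form a wider merged stretch, which leaves more room for a GLIS3 peak to join it. Where regions with all 3 TFs held several peaks of a TF, the set with the smallest span need not contain the closest pair. The GLIS3 to NKX2.1 distance had a median of 58 bp with FOXE1 (55 to 61 bp) and 53 bp without it (51 to 55 bp, n = 7761), or 54 and 50 bp for overlapping peaks. Those 2 medians were closer together, and for overlapping peaks the intervals of 51 to 58 bp and 49 to 52 bp overlapped. For GLIS3 to FOXE1 the median was 65 bp with NKX2.1 (61 to 70 bp) and 68 bp without it (65 to 73 bp, n = 2030), also with overlapping intervals. For overlapping peaks it was 60 bp with NKX2.1 and 64 bp without it, so this pair did not lie farther apart beside the third TF. Thus NKX2.1 to FOXE1 was the pair whose intervals stayed apart. Whether that separation goes beyond the selection was not tested, and neither were the differences themselves.

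**Figure D1:**
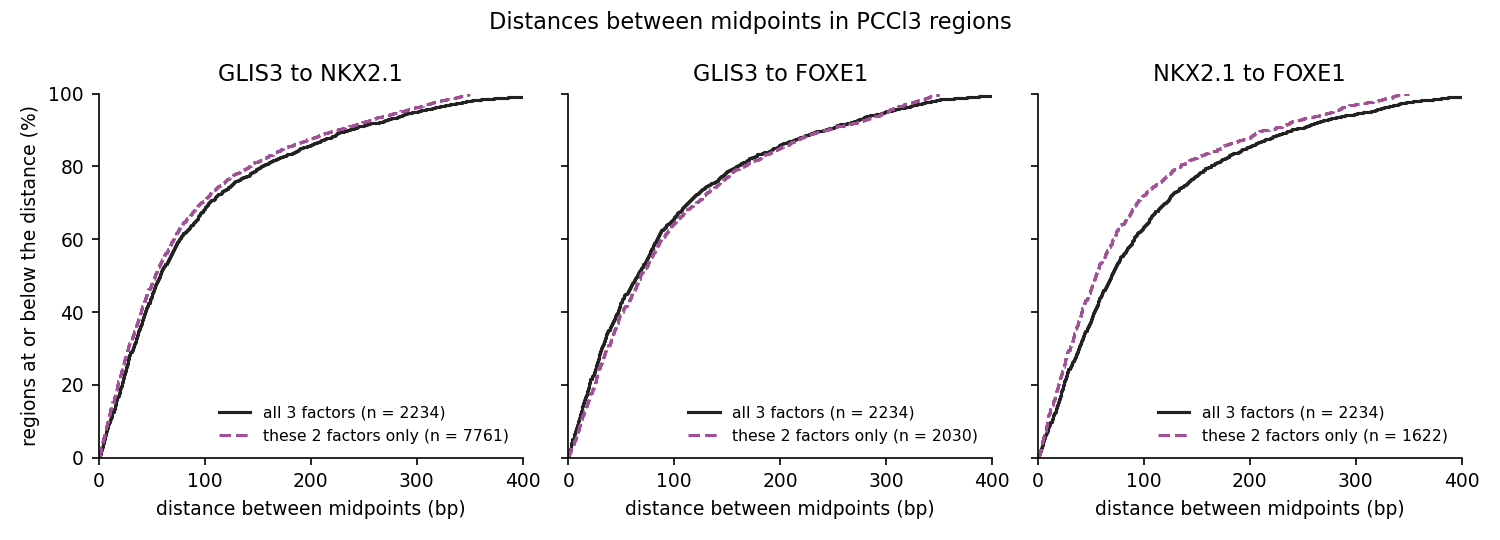
Each panel plots, for a pair of TFs, the percentage of regions (y axis) whose 2 midpoints lay at or below a distance in bp (x axis), for regions with all 3 TFs (solid line) and regions with only these 2 (dashed line). The lines are farthest apart for NKX2.1 to FOXE1, where the medians were 69 and 55 bp.

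The order of the midpoints along the chromosome was counted in 2209 regions, leaving out 25 in which 2 or more midpoints fell on the same base. GLIS3 was in the middle in 805 regions (36.4%, 34.5 to 38.5%), FOXE1 in 708 (32.1%, 30.1 to 34.0%) and NKX2.1 in 696 (31.5%, 29.6 to 33.5%). An equal share would be 33.3%. The GLIS3 interval lay above that share and above the intervals of the other 2 TFs, though its lower bound of 34.5% was close to the upper bound of 34.0% for FOXE1. Among regions whose 3 peaks shared a base, the intervals of GLIS3 (36.3%, 34.2 to 38.4%) and FOXE1 (32.3%, 30.2 to 34.4%) overlapped. Positions have no strand here, and mirror orders were counted beside each other. NKX2.1, GLIS3, FOXE1 from low to high position was found in 394 regions and its mirror in 411. GLIS3, NKX2.1, FOXE1 was found in 349 and its mirror in 347, and GLIS3, FOXE1, NKX2.1 in 368 and its mirror in 340. GLIS3 was at the lower position in 1137 of 2228 regions against NKX2.1 and in 1119 of 2224 against FOXE1, and NKX2.1 in 1092 of 2225 against FOXE1. Each of these shares had an interval that included 50%.

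**Figure D2:**
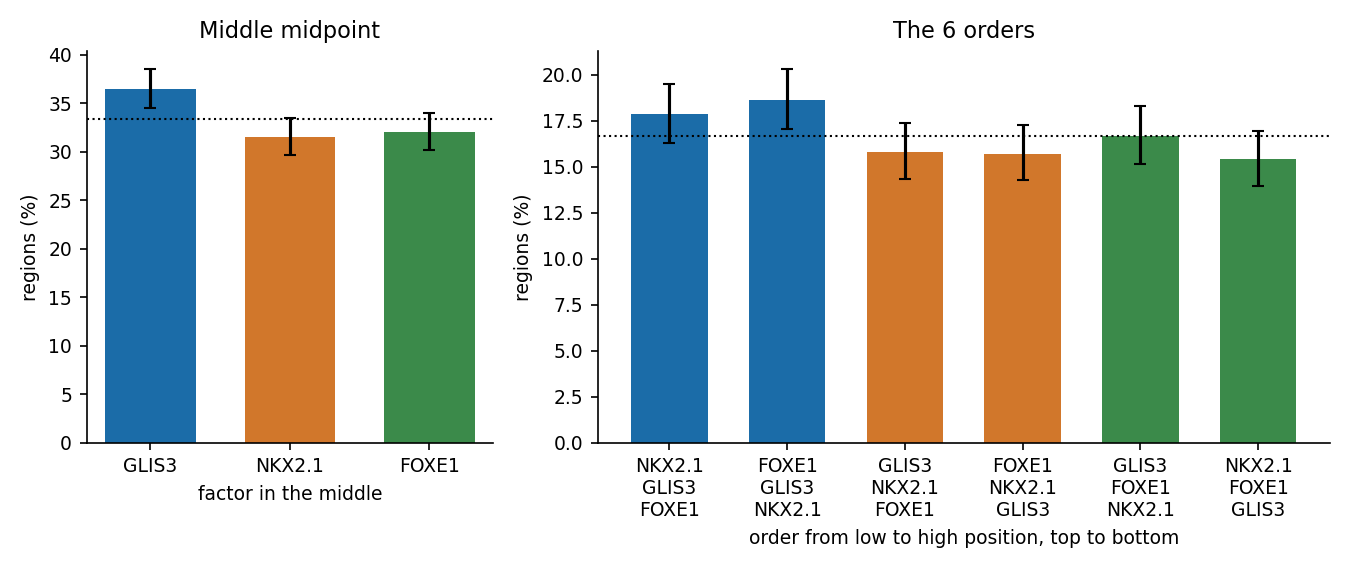
The left panel plots the percentage of 2209 regions (y axis) with each TF in the middle, and the right panel the percentage in each of the 6 orders, coloured by the TF in the middle, with Wilson 95% intervals as error bars. Dotted lines mark equal shares, and the bar for GLIS3 in the middle reaches 36.4%, against 31.5% for NKX2.1 and 32.1% for FOXE1.

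The closest pair of midpoints gave another view of the same positions. Of 2220 regions with a single closest pair, it was GLIS3 and NKX2.1 in 797 (35.9%, 33.9 to 37.9%), GLIS3 and FOXE1 in 787 (35.5%, 33.5 to 37.5%) and NKX2.1 and FOXE1 in 636 (28.6%, 26.8 to 30.6%). GLIS3 was therefore part of the closest pair more often than either other TF. Of 3 midpoints on a line, the middle one always belongs to the closest pair. This count thus partly repeats the middle shares and is not separate support for them. The middle share of GLIS3 did not follow the span. With the regions split by span into 4 sets of similar size, it was 35.4% at spans of 5 to 62 bp, 36.2% at 63 to 111 bp, 38.7% at 112 to 202 bp and 35.4% at 203 to 632 bp, with intervals that overlapped. In the tightest set FOXE1 was in the middle in 35.3% (31.4 to 39.3%) and NKX2.1 in 29.3% (25.7 to 33.2%). The intervals of all 3 TFs overlapped there, at 63 to 111 bp and at 203 to 632 bp. At 112 to 202 bp the interval of GLIS3 (34.8 to 42.8%) lay above that of FOXE1 (26.4 to 34.0%) and overlapped that of NKX2.1 (27.5 to 35.1%).

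The regions with all 3 TFs lay on 20 autosomes, the X chromosome and 2 sequences outside the numbered chromosomes and X. The most were on chromosome 1, with 267. As a share of the collapsed regions of a chromosome, the highest values were 3.14% on chromosome 19 (78 of 2481, 2.53 to 3.91%), 2.96% on chromosome 6 (138 of 4667, 2.51 to 3.48%) and 2.90% on chromosome 5 (176 of 6065, 2.51 to 3.36%). The lowest were 0.998% on X (14 of 1403, 0.595 to 1.67%), 2.09% on chromosome 11 (51 of 2445, 1.59 to 2.73%) and 2.15% on chromosome 14 (65 of 3026, 1.69 to 2.73%). All 5 of these autosomes had intervals that included the share over all autosomes, 2.60% (2218 of 85182, 2.50 to 2.71%), and the X chromosome did not.

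The lower share on X moved with the FOXE1 list. X held 60 FOXE1 peaks, or 0.635% of that list, against 1.21% of the GLIS3 list and 2.07% of the NKX2.1 list. Among regions with GLIS3 and NKX2.1, FOXE1 was also present in 9.33% on X (14 of 150, 5.64 to 15.1%) and in 22.5% on autosomes (2218 of 9836, 21.7 to 23.4%). Among regions with FOXE1, both other TFs were present in 23.3% on X (14 of 60, 14.4 to 35.4%) and 23.7% on autosomes (22.8 to 24.5%). FOXE1 peaks were thus scarcer on X, and those that were there had both other TFs about as often in this small number. Some autosomes also had intervals that left out these autosomal shares, in both directions. On chromosome 10, both other TFs were present in 19.6% of regions with FOXE1 (17.2 to 22.3%), and FOXE1 in 26.6% of regions with GLIS3 and NKX2.1 (23.4 to 30.0%). The part of read depth or mapping in these shares was not tested.

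**Figure D3:**
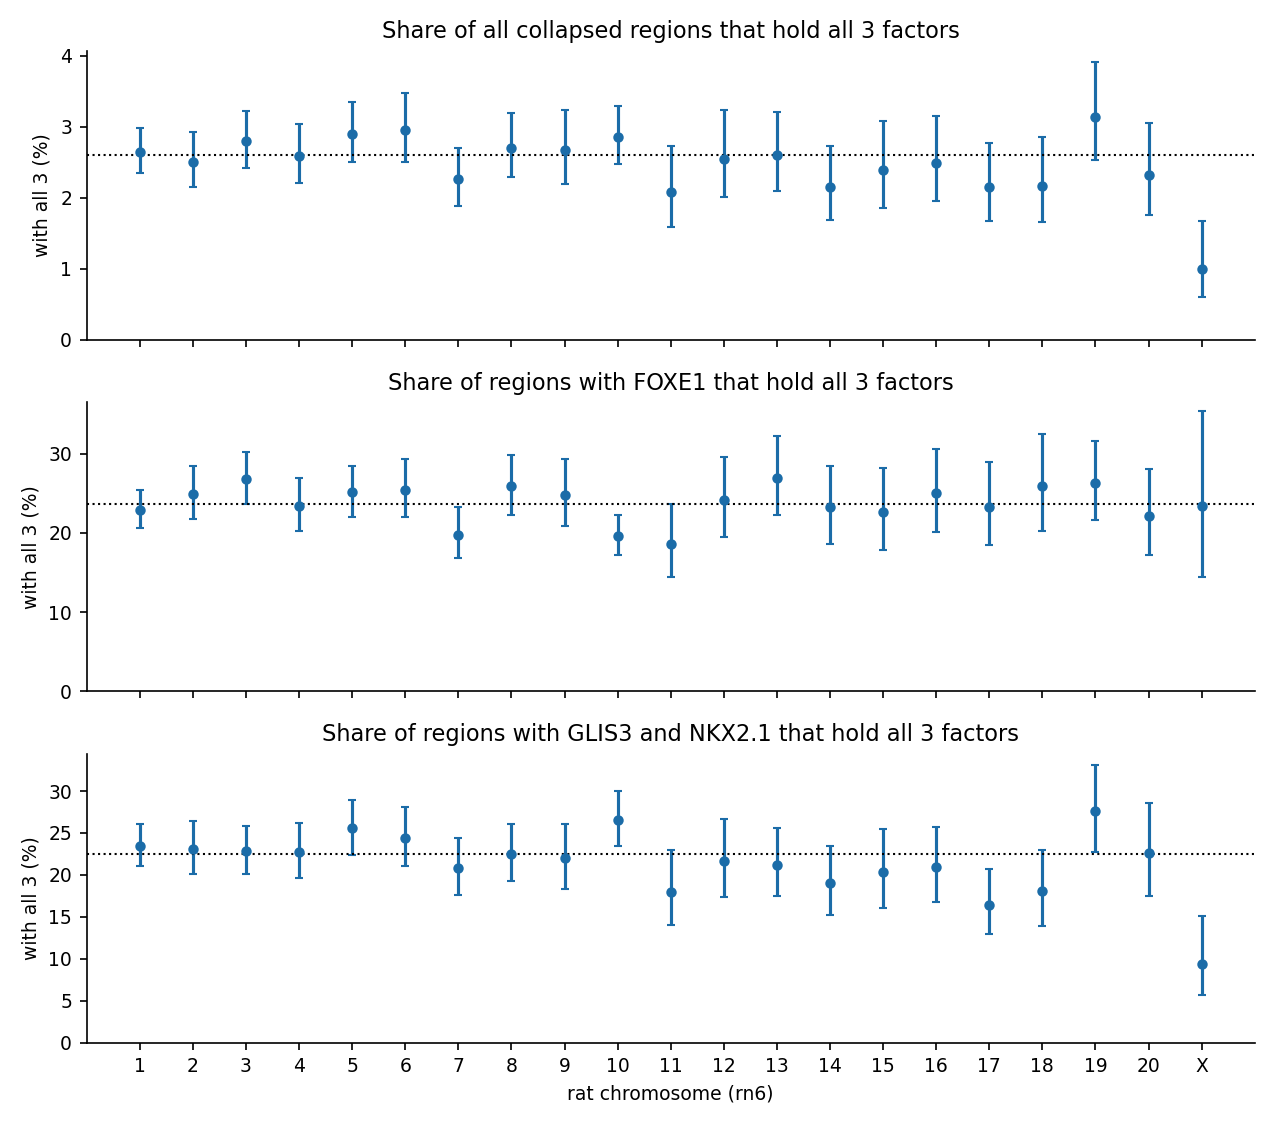
Points show, for each rat chromosome (x axis), the percentage (y axis) of all collapsed regions (top), of regions with FOXE1 (middle) and of regions with GLIS3 and NKX2.1 (bottom) that held all 3 TFs, with Wilson 95% intervals, and dotted lines show the share over the autosomes. X stands below the line in the top and bottom panels, at 0.998 and 9.33%, and near it in the middle panel, at 23.3%, and chromosome 10 is among the autosomes off the line in the middle and bottom panels, at 19.6 and 26.6%.

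Most regions with all 3 TFs had no other such region within 10 kb. Whether they lay closer together or farther apart than an even spread over the genome was not tested. The gap to the nearest other region of this kind had a median of 158553 bp (144570 to 172473 bp), with quartiles of 50904 and 445127 bp and a smallest value of 159 bp. Another such region lay within 10 kb of 170 regions (7.61%, 6.58 to 8.78%). Regions with GLIS3 and FOXE1 only, a class of similar number (2030), had another of their own class within 10 kb in 7.19% (6.15 to 8.40%), so the clustering did not differ beyond the intervals between these 2 classes. The most numerous class with 2 TFs, GLIS3 and NKX2.1, had 16.9%, and NKX2.1 and FOXE1 3.39%. Such shares rise with the number of regions in a class and are not comparable between classes of unlike size.

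The class of the nearest collapsed region does not have that limit. For regions with all 3 TFs the nearest region also held all 3 in 93 of 2233 (4.16%, 3.41 to 5.08%). The share was 3.75% for regions with GLIS3 and NKX2.1 (3.35 to 4.20%), 3.35% for GLIS3 and FOXE1 (2.65 to 4.23%) and 2.90% for NKX2.1 and FOXE1 (2.19 to 3.83%). It was 2.51% for GLIS3 alone (2.34 to 2.68%), 2.32% for NKX2.1 alone (2.17 to 2.48%) and 3.18% for FOXE1 alone (2.65 to 3.81%). So a region with all 3 TFs was the nearest neighbour more often for regions that held all 3 than for regions of GLIS3 or NKX2.1 alone, while the intervals of the classes with FOXE1 or with 2 TFs overlapped that of the regions with all 3. Nearest neighbours are often mutual, so these intervals are too narrow.

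Other binding was often close. The nearest collapsed region of any class lay a median of 3146 bp from a region with all 3 TFs (2867 to 3520 bp), and within 1 kb in 28.5% (26.7 to 30.4%). For the classes with 2 TFs the share within 1 kb was 28.7% for GLIS3 and NKX2.1, 32.0% for GLIS3 and FOXE1 and 24.9% for NKX2.1 and FOXE1. It was 25.4% for GLIS3 alone, 17.4% for NKX2.1 alone and 30.0% for FOXE1 alone. Closeness to other binding was therefore not particular to regions with all 3 TFs. In the 5 kb on either side, 41.8% of regions with all 3 had a further GLIS3 peak (39.7 to 43.8%), 37.4% a further NKX2.1 peak (35.4 to 39.4%) and 12.9% a further FOXE1 peak (11.6 to 14.4%). For regions with GLIS3 and NKX2.1 only, these shares were 41.1, 34.1 and 13.2%.

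**Figure D4:**
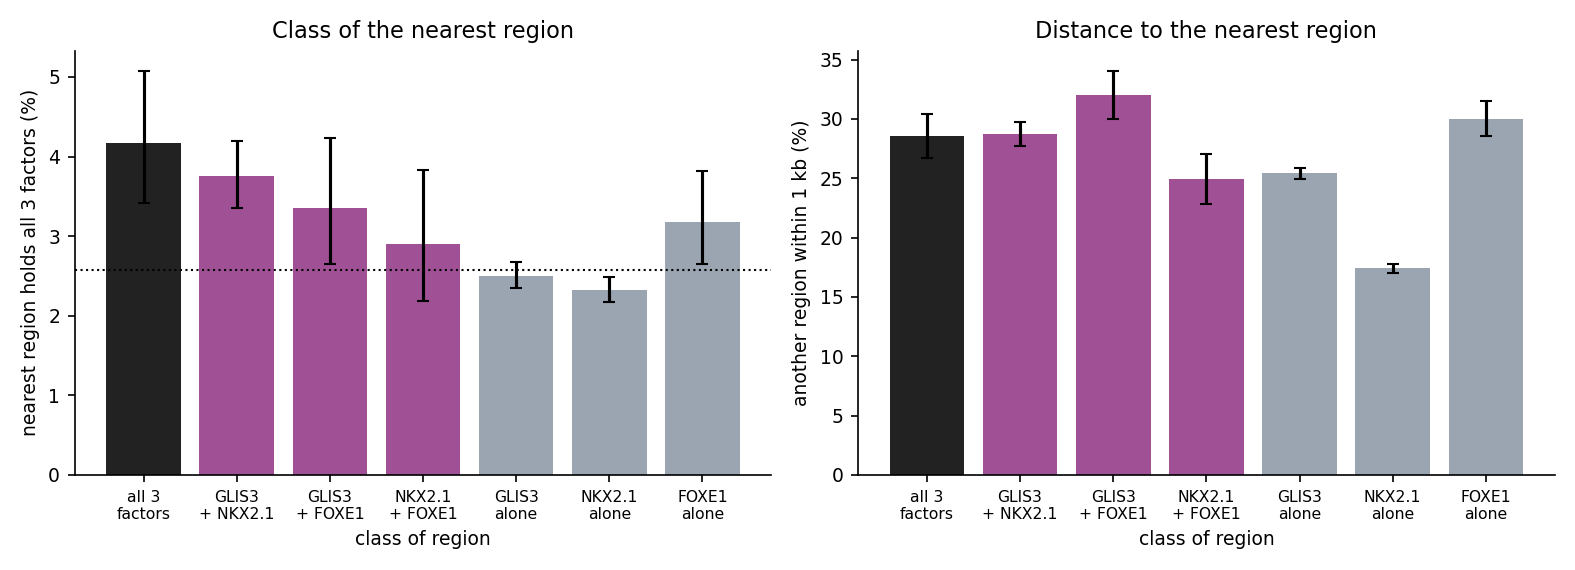
The left panel plots, for each class of region (x axis), the percentage (y axis) whose nearest collapsed region held all 3 TFs, and the right panel the percentage with any other region within 1 kb, with Wilson 95% intervals; the dotted line marks 2.58%, the share of all collapsed regions that held all 3. The left bars run from 4.16% for regions with all 3 TFs down to 2.32% for NKX2.1 alone, and the right bars are highest for GLIS3 and FOXE1, at 32.0%.

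When regions with all 3 TFs were chained across gaps of up to 50 kb, 1685 stood alone and 549 (24.6%, 22.8 to 26.4%) fell into 257 groups. There were 230 groups of 2, 21 of 3, 4 of 4 and 2 of 5. The shortest group of 5 lay on chromosome 19 from 59762653 to 59837491, a stretch of 74.8 kb with 11 collapsed regions. Its 5 members had spans of 78, 73, 77, 213 and 150 bp, and GLIS3 was in the middle in 4 of them. The other group of 5 lay on chromosome 6 from 7059517 to 7199313, over 139.8 kb with 23 collapsed regions, and its members had spans of 55, 219, 283, 267 and 97 bp. Here GLIS3 was in the middle in 3, NKX2.1 in 1 and FOXE1 in 1.

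Of the 4 groups of 4, the 3 shortest are named. They lay on chromosome 2 from 203895282 to 203944718 (49.4 kb, 10 collapsed regions), on chromosome 6 from 91802208 to 91866967 (64.8 kb, 13 regions) and on chromosome 15 from 32982238 to 33056590 (74.4 kb, 14 regions). The group on chromosome 2 held both tight and wide members, with spans of 113, 295, 19 and 9 bp. On chromosome 6 the spans were 97, 119, 25 and 191 bp, and on chromosome 15 they were 17, 15, 41 and 200 bp. In every one of these 5 groups, regions with fewer TFs lay between the members.

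**Figure D5:**
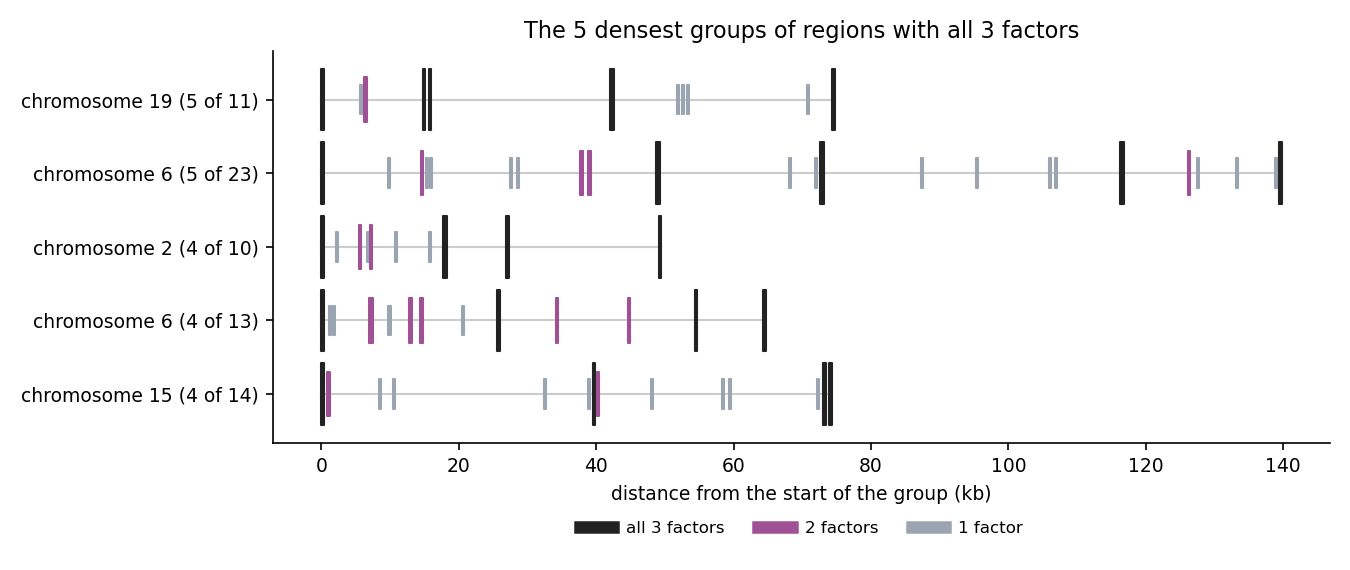
Each row maps a group of regions with all 3 TFs chained within 50 kb, as distance from the start of the group in kb (x axis), with tall black marks for regions with all 3 TFs, medium marks for 2 TFs and short marks for 1 TF; marks are drawn slightly wider than scale so that they can be seen. The labels give the number with all 3 out of the collapsed regions in the stretch, such as 5 of 11 on chromosome 19 and 5 of 23 on chromosome 6.

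The merge distance set which wide regions were kept. Of the regions with all 3 TFs, 133 were joined across a gap of 1 to 50 bp, and their spans had a median of 356 bp. Not all of the 133 depended on the merge distance for their place. Their smallest span was 5 bp, where the gap joined only a further peak, and 2133 regions remained without any merge distance. The closest to the limit had gaps of 50, 49 and 49 bp and spans of 402, 467 and 358 bp. In the region with a span of 467 bp, the gap of 49 bp joined only a further NKX2.1 peak. That peak lay outside the set that gave the span. Merging across gaps of up to 100 bp would have added 93 regions, with a median span of 436 bp. The nearest of these had gaps of 51, 52 and 52 bp and spans of 354, 382 and 388 bp. Of the 3 regions just inside the limit, 2 held 4 peaks, with 2 of NKX2.1, while the 3 just outside held 3 peaks each.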

How the data were processed

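Peak lists of 3 PCCl3 ChIP-seq libraries (GLIS3, NKX2.1 and FOXE1) were used. The authors filtered reads on mean base quality, cut adapters (Cutadapt 1.12), aligned single-end reads to rn6 (Bowtie 1.2, unique hits only), removed duplicates (Picard 1.110) and called peaks of each library against its input (HOMER 4.10.3). Bedtools 2.24.0 is also named in the submitters' processing notes. The deposited files give only chromosome, start, end and a name per peak, with no score, so no stricter threshold could be applied. Duplicate removal and unique mapping lower peak calls in repeated sequence.

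Starts were converted to a count from 1, and every peak was given a width of 300 bp about its midpoint and merged with others within 50 bp, on all sequences of the files. Regions named are the 5 with the most peaks (ties by smaller span), the 5 smallest spans among regions with exactly 3 peaks, the 5 largest spans and the 5 densest groups chained within 50 kb. The chromosomes named are the 3 highest and the 3 lowest shares and, added after the values were seen, the one with the most regions and chromosome 10. The regions and lists were chosen with earlier results of these data known. Counting code was tested on simulated data. Alternatives were other merge distances, another peak width, peaks as deposited, placed chromosomes only, regions with exactly 3 peaks, a base common to all 3 peaks and other distances between neighbours. Distances to start sites and sequence motifs had been planned and were not run, since no rn6 genome or annotation was used here. Python 3.11.15, NumPy 2.4.6, SciPy 1.17.1 and Matplotlib 3.10.9 were used.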

Additional observations from a re-analysis of the deposited data

How the results depend on the processing

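The number of regions with all 3 TFs was 2133 without any merge distance, 2463 at 200 bp, 2011 with peaks of 200 bp, 2232 on placed chromosomes and 1988 where all 3 peaks shared a base, against 2234 as reported. It was 2327 at 100 bp, a setting chosen after seeing the data. The share whose 3 peaks shared a base was 93.2% without a merge distance, 80.6% at 200 bp and 82.7% with peaks of 200 bp. The median span was 106, 125 and 100 bp in the same order, and 99 bp where a common base was required. The share with exactly 3 peaks was 98.4, 88.9 and 99.4%. All of these follow from how far apart peaks may lie. Another region with all 3 TFs lay within 5 kb in 3.40% and within 50 kb in 24.6%. Of the alternative values computed, 12 left the 95% interval of the reported value, all given here, and 41 stayed within it or, for the count of regions, within 1.5 times. The middle shares were among the 41, with GLIS3 between 36.3 and 36.7%, but its interval overlapped that of FOXE1 where a common base was required. No library could be left out, because each TF had 1. No paired analysis was possible because no result came from a test.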
